A study of Homo sapiens with 9 samples.

Results

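The promoters and gene bodies of 10 genes of the CTCF and cohesin system were examined in ATAC-seq peak lists of MDA-MB-231 cells, a human triple-negative breast cancer line. The 10 members were chosen by name, for what their proteins do, from 20033 protein-coding genes: CTCF, RAD21, SMC1A, SMC3, STAG1, STAG2, NIPBL, WAPL, PDS5A and PDS5B. ATAC-seq marks open chromatin through the insertions of the Tn5 transposase. The series held 9 libraries, and 3 of its 6 groups had 2 libraries: cells given a control shRNA (shCtrl), shEZH2 or shE2F1. The other groups had 1 library each: shSUZ12, DMSO and the EZH2 inhibitor GSK126. All shRNA cells were exposed to lentivirus for 24 h and selected with 2 μg/ml puromycin for 72 h, which the DMSO and GSK126 cells are not stated to share. Nothing states that replicates were separate cultures, so their spread may be technical.

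CTCF is the zinc-finger protein that binds insulator sites and stops the extrusion of chromatin loops. Cohesin is the ring that extrudes those loops and holds sister chromatids together. SMC1A and SMC3 are its ATPase arms, RAD21 closes the ring, and STAG1 or STAG2 joins it to chromatin and to CTCF. NIPBL loads the ring and drives extrusion, WAPL releases it, and PDS5A and PDS5B bind RAD21 and regulate both release and stable cohesion. EZH2 is the catalytic subunit of the repressive complex PRC2, SUZ12 is another core subunit of it, and E2F1 is a transcription factor of S phase genes. The question was whether the genes of the architectural factors gain or lose promoter accessibility when EZH2 or E2F1 is depleted.

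The deposited lists held between 58626 peaks, in shEZH2 replicate 2, and 85812 peaks, in shE2F1 replicate 2. The shRNAs act on mRNA, so promoter accessibility of EZH2, E2F1 and SUZ12 does not check the knockdowns, and all 3 promoters had a peak in every library. Of the 6 mesenchymal-like markers, 5 had a promoter peak in all 9 libraries, with CDH2 at none, and of the 6 luminal markers 2 did, KRT8 and EPCAM, while CDH1 and ESR1 had a peak in 8 libraries, FOXA1 in 7 and GATA3 in none. PTPRC and CD3E, markers of blood cells, had no promoter peak in any library.

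Letters of the E2F site stood close to the strongest summit over the 9 libraries in 5 of the 10 member promoters. Within 100 bp of the strongest summit, TTTCCCGC, TTTGGCGC, TTTCGCGC or TTTGCCGC was found on either strand at SMC1A, SMC3, STAG1, NIPBL and PDS5A, against 3.31% of the 12026 promoters with a peak in every library. The window around the summit was chosen after the data were seen. In the window from 250 bases upstream to 50 bases downstream of the transcription start site (TSS) 3 of 10 held these letters, SMC1A, STAG1 and NIPBL, against 5.70% of those promoters and 4.36% of all protein-coding ones. The 5 sites are shown 5′ to 3′ on the strand of the gene, from GRCh38 (hg38), with the E2F letters in capitals, since the results of the shE2F1 comparison refer to them.
SMC1A, chrX:53422656-53422685, minus strand: gcactgcggcgTTTCCCGCgcgggctacct
SMC3, chr10:110567390-110567419, plus strand: tccctcttggcTTTGGCGCggaacctttcc
STAG1, chr3:136752543-136752572, minus strand: cagcggccacgTTTCCCGCcccgctggtgc
NIPBL, chr5:36876709-36876738, plus strand: ggttgttagtgTTTGGCGCcggcggaggga
PDS5A, chr4:39976632-39976661, minus strand: aaagtcgccccTTTCCCGCtgaactttggt
Counted from the TSS, the first base of the letters lay at −20 in SMC1A, −294 in SMC3, −183 in STAG1 and −49 in NIPBL. At PDS5A it lay at 1261, in intron 1. The summit was not at the same place in every library. At PDS5A it lay at 1286 in shCtrl replicate 2 and 1329 in shE2F1 replicate 2. In replicate 1 of these groups it lay at −66 and −58, and in shEZH2 at −66 and −101. The NIPBL summits of shEZH2 lay at −791 and −807, away from its letters. A match of letters is a description and not evidence of binding.

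Letters of 5 other factors were also searched, with counts of 0 to 3 members. Within 100 bp of the strongest summit, the ETS letters CCGGAAG were found at 2 members, SMC1A and NIPBL, against 16.9% of promoters with a peak in every library. The SP letters GGGGCGGGG were found at SMC1A, STAG1 and PDS5B, against 26.1%. The NRF1 letters GCATGCGC and the YY1 letters AAGATGGCG were found at 0 of 10 members, against 5.40% and 2.44%. The CTCF core consensus was likewise found at 0 of 10 summits, including that of CTCF itself, against 0.757%.

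STAG2 differed from the other members in base composition. In the 300 bases around its TSS the ratio of observed to expected CpG was 0.370, at or above that of 4.12% of the promoters with a peak in every library, whereas in the other 9 members it lay between 0.868, in RAD21, and 1.14, in CTCF. The 200 bases upstream of the STAG2 and WAPL start sites are shown on the strand of each gene, with every CpG in capitals, to set the CpG-poor start of STAG2 beside a CpG-rich one, WAPL having a ratio of 1.04.
STAG2, chrX:123961506-123961705, plus strand, 6 CpG: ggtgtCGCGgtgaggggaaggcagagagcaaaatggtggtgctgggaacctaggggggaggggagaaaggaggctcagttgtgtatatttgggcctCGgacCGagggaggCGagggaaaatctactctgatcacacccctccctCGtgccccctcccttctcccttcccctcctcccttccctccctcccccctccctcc
WAPL, chr10:86521793-86521992, minus strand, 34 CpG: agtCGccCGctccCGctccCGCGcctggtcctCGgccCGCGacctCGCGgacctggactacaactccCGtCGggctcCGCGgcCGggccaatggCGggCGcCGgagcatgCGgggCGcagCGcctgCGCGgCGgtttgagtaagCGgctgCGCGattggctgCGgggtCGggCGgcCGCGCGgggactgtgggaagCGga

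Every member had a promoter peak in every library, that is a peak touching a window that reached 1 kb upstream and downstream from the start of its Ensembl canonical transcript. Of the 20033 protein-coding promoters, 12026 had such a peak in all 9 libraries. Promoters were ranked by the percentile of the fold enrichment of their strongest peak within the library's own list, where 100 is the strongest peak and fold enrichment is the summit over its local background. The 10 members had a median percentile of 84.9 over libraries and genes, and all promoters with a peak in every library had one of 78.5. At the member summits the lists corresponded to 25 to 207 tags, with an exact 95% Poisson interval of 16.2 to 36.9 tags for the lowest and of 180 to 237 for the highest, which covers counting error only.

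Of the CTCF and core ring genes, CTCF stood highest. CTCF lay between the 90.1 and 97.8 percentile over the 9 libraries with a median of 93.7, at or above 83.4% of the promoters with a peak in every library. RAD21, whose protein closes the ring, lay between 85.0 and 98.6 with a median of 92.2. The ATPase genes followed, SMC1A with a median of 86.7 and SMC3 with a median of 86.0. STAG1 lay between 74.0 and 91.0 with a median of 81.2. Among the regulators, the release factor gene WAPL had a median of 91.9 and PDS5B one of 83.8. The ranges of these 7 promoters over the libraries overlapped, and neighbours in the order changed places in at least 1 library.

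The remaining 3 members were lower. PDS5A lay between 48.8 and 70.5 with a median of 60.4. NIPBL lay between 47.1 and 62.0 with a median of 55.9, and overlapped PDS5A. STAG2 was the lowest, between 0.681 and 47.6 with a median of 28.6, at or above 6.06% of the promoters with a peak in every library. STAG2 and NIPBL overlapped only through shCtrl replicate 2, where STAG2 stood at 47.6 and NIPBL at 47.1.

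**Figure D1:**
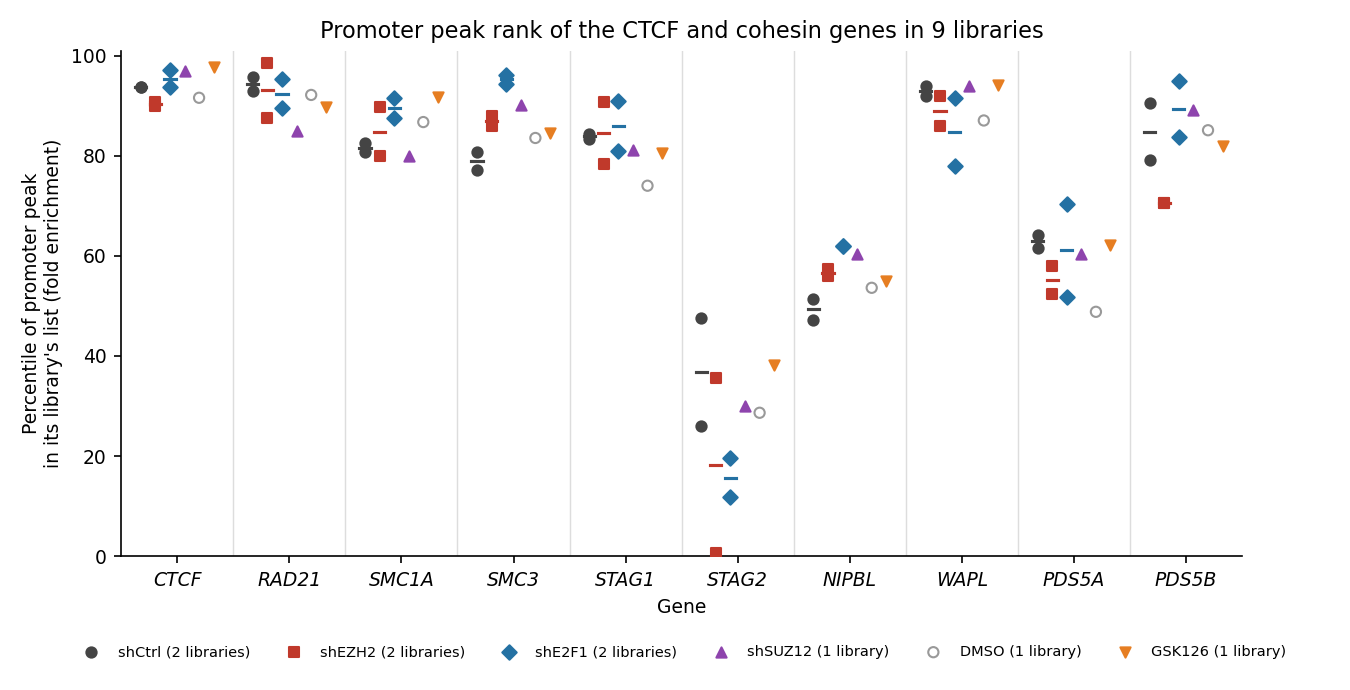
Percentile of the promoter peak within its library's list, by fold enrichment (y axis, 0 to 100), for the 10 genes (x axis). Each point is 1 library and short bars are means of the groups with 2 libraries; SMC3 and NIPBL have their shCtrl points (78.9 and 49.3 on average) below all other libraries, and STAG2 lies lowest, from 0.681 to 47.6.

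Most member promoters share their open region with another start site, a count that was not made over all promoters. The canonical TSS of a divergent or antisense long noncoding RNA lay within 1 kb at CTCF (CTCF-DT, 217 bp away), RAD21 (RAD21-AS1, 352 bp), STAG1 (STAG1-DT, 252 bp), STAG2 (STAG2-AS1, 365 bp), NIPBL (NIPBL-DT, 112 bp) and WAPL (WAPL-DT, 153 bp). SMC1A shares its promoter with the protein-coding gene RIBC1, which starts 219 bp away on the other strand, and the miRNA gene MIR3610 starts 24 bp from RAD21. SMC3, PDS5A and PDS5B had no such neighbour. Accessibility cannot be assigned to either direction of transcription at the shared promoters.

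After EZH2 depletion, CTCF, PDS5A and PDS5B ranked below both control libraries and SMC3 and NIPBL ranked above both. With 2 libraries against 2 an exact permutation test cannot give a p below 0.33, so a promoter was called only where both knockdown libraries lay beyond both shCtrl libraries. The 3 members called lower of 10 compare with 29.7% of 12234 promoters, and the 2 called higher compare with 10.6%. The members' counts are close to this background. The median difference over the members was −2.28 percentile points, beside −2.58 over all promoters.

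PDS5B, a regulator of cohesin release, had the largest difference among the members called in shEZH2. It stood at 79.1 and 90.6 in shCtrl and at 70.5 in each shEZH2 library, a mean of 84.8 ± 8.13 (SD, n = 2) against 70.5 ± 0.00786 (SD, n = 2). PDS5A stood at 64.2 and 61.6 in shCtrl and at 52.5 and 58.0 in shEZH2, a difference in means of −7.66 points. Its summit lay at −66 and 1286 from the TSS in shCtrl replicates 1 and 2, and at −66 and −101 in shEZH2. CTCF stood at 93.8 and 93.7 in shCtrl and at 90.9 and 90.1 in shEZH2. The CTCF difference was −3.30 points, with an SD of 0.0296 in shCtrl and 0.564 in shEZH2.

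SMC3, an ATPase arm of the ring, was higher in shEZH2. Its promoter stood at 77.1 and 80.7 in shCtrl and at 88.0 and 86.0 in shEZH2, a difference of 8.06 points. NIPBL, the loader gene, stood at 51.5 and 47.1 in shCtrl and at 57.4 and 55.9 in shEZH2, a difference of 7.39 points. The NIPBL groups did not overlap, but their summits lay at different places. They stood at −25 and −19 from the TSS in shCtrl and at −791 and −807 in shEZH2. In shEZH2 replicate 2 the broad NIPBL peak was split, and by the peak nearest to the TSS the difference became −20.3 points.

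The other 5 members overlapped between shEZH2 and shCtrl. RAD21 stood at 98.6 and 87.6 in the shEZH2 libraries and at 93.0 and 95.7 in shCtrl. SMC1A stood at 79.9 and 89.7 in shEZH2 and at 82.5 and 80.7 in shCtrl. STAG1 stood at 78.4 and 90.8 in shEZH2 and at 84.4 and 83.4 in shCtrl. In all 3 genes the shEZH2 libraries lay on either side of the controls. WAPL stood at 86.0 and 92.0 in shEZH2 and at 91.9 and 94.0 in shCtrl, and STAG2 is described with its regions further on.

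The length of the lists moved this balance for all promoters. Within the 58626 strongest peaks of every list by −log10 p, 14.4% of promoters were lower and 23.9% higher in shEZH2. There CTCF and PDS5B were still lower and SMC3 and NIPBL still higher, and PDS5A overlapped, with a difference of 0.516 points. Ranked by −log10 p in place of fold enrichment, 42.2% of promoters were lower and 4.15% higher. By that rank the members called lower were WAPL, PDS5A and PDS5B, and 0 members were higher.

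After E2F1 depletion, SMC3, NIPBL and SMC1A ranked above both control libraries and STAG2 and WAPL ranked below both. The 3 called higher of 10 members compare with 19.2% of 12516 promoters, and the 2 called lower compare with 17.0%. The median difference over the members was 1.88 points, beside −0.0714 over all promoters. These shares rest on 3 and 2 genes.

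SMC3 differed most among the members called higher. From 77.1 and 80.7 in shCtrl it stood at 96.2 and 94.4 in shE2F1, a mean of 78.9 ± 2.50 (SD, n = 2) against 95.3 ± 1.27 (SD, n = 2) and a difference of 16.4 points. NIPBL stood at 62.0 in each shE2F1 library against 51.5 and 47.1, a difference of 12.8 points. SMC1A stood at 91.5 and 87.5 against 82.5 and 80.7, a difference of 7.90 points. In all 3 the groups did not overlap.

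These 3 genes are among the 5 with E2F letters near the strongest summit shown above. That summit window was chosen after the data were seen, and the split below was not tested. In the window around the TSS, SMC3 and PDS5A held no such letters. Of the members with the letters, 3 of 5 were higher and 0 lower in shE2F1, and of those without, 0 of 5 were higher and 2 lower. Over all promoters, 22.4% of the 398 promoters with them were higher in shE2F1, beside 19.2% of the 11628 without. The lower shares were 15.1% and 16.9%. The split of the members moved with the setting. Within lists of the same number of peaks, 1 of the 5 members without the letters, CTCF, was higher in shE2F1. Ranked by −log10 p, SMC1A, which carries the letters, was lower in shE2F1. With a window of 500 bp, STAG2 was not called lower in shE2F1. In shEZH2 the 2 members called higher, SMC3 and NIPBL, also carry the letters, though the NIPBL summits of shEZH2 lay away from them. Lower in shEZH2 were 1 of the 5 members with the letters, PDS5A, and 2 of the 5 without, CTCF and PDS5B. Over all promoters in shEZH2, 8.79% of those with the letters were higher, beside 10.7% of those without, and 36.4% were lower, beside 29.4%.

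WAPL, the release factor gene, was lower in shE2F1. It stood at 77.9 and 91.6 against 91.9 and 94.0 in shCtrl. The difference in means of −8.16 points came mostly from shE2F1 replicate 1, since replicate 2 lay just below the lower control. CTCF stood at 93.7 and 97.2 in shE2F1, RAD21 at 89.6 and 95.3, and STAG1 at 91.0 and 81.0. PDS5A stood at 70.5 and 51.8, the widest spread among the members in shE2F1, and PDS5B at 95.04 and 83.8. All 5 overlapped with shCtrl.

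Within lists of 58626 peaks, 15.4% of promoters were lower and 22.3% higher in shE2F1. SMC3, NIPBL and SMC1A stayed higher, CTCF joined them with a difference of 2.81 points, and STAG2 and WAPL stayed lower. Ranked by −log10 p, 22.8% of promoters were lower and 12.4% higher, and the members lower were RAD21, SMC1A and STAG2. SMC3 and NIPBL were higher by that rank too, but by 5.19 and 2.64 points in place of 16.4 and 12.8, whereas SMC1A turned, with a difference of −0.217 points.

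SMC3 and NIPBL were thus above shCtrl in both knockdowns, and these comparisons share the same 2 control libraries. In the DMSO library, whose labels name no shRNA, SMC3 stood at 83.6 and NIPBL at 53.6, also above both shCtrl libraries. For other called members, too, DMSO lay beyond both shCtrl libraries on the side of the call. It was above them at SMC1A (86.7) and below them at CTCF (91.6), PDS5A (48.8) and WAPL (87.1). At PDS5B (85.1) and STAG2 (28.6) it lay between them. How far the shCtrl libraries themselves set these calls was not tested.

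**Figure D2:**
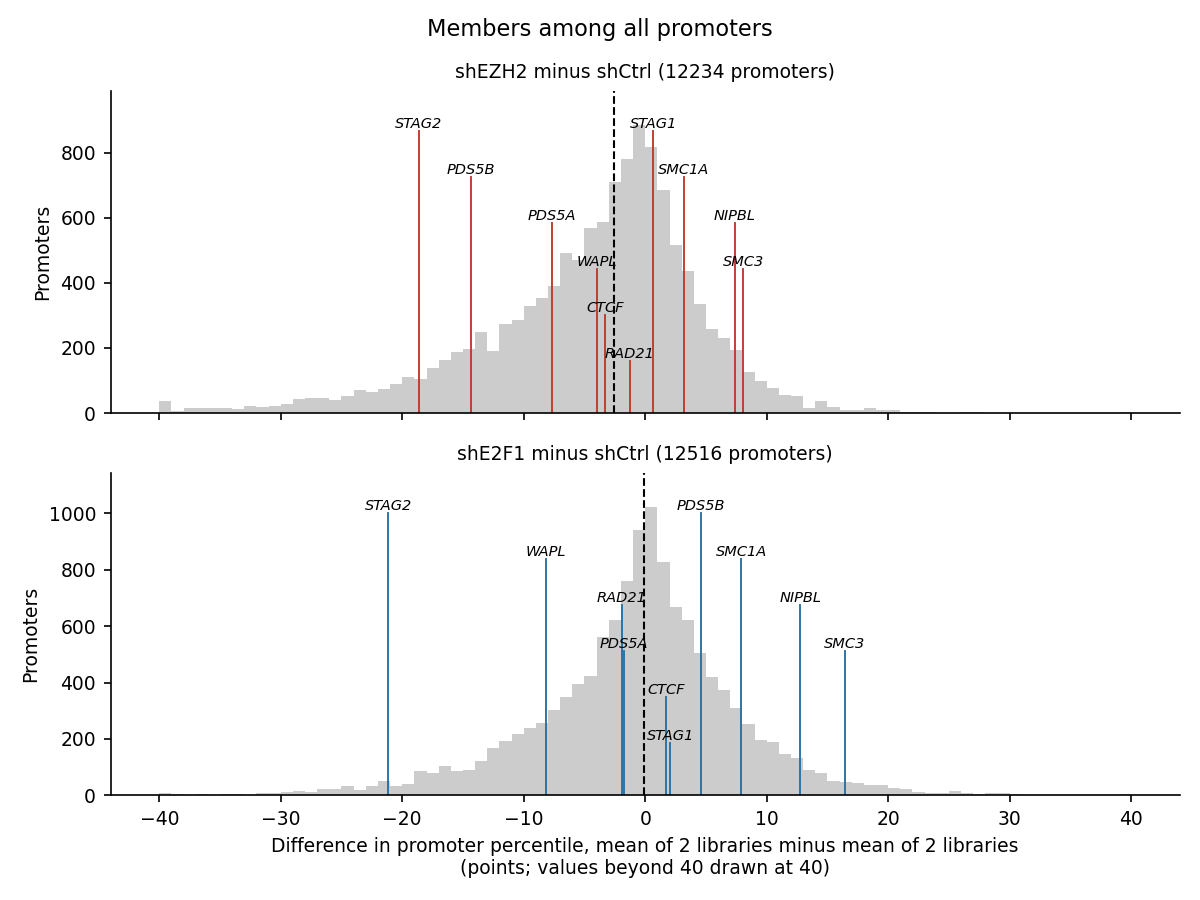
Difference in promoter percentile, knockdown mean minus shCtrl mean (x axis, points), for all promoters with a peak in the 4 libraries (grey, number of promoters on the y axis) and for the 10 genes (coloured lines, whose height has no meaning), with values beyond 40 points drawn at 40. Dashed lines mark the medians of all promoters, −2.58 in shEZH2 and −0.0714 in shE2F1; SMC3 lies at 8.06 and 16.4 and PDS5B at −14.3 and 4.56.

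A linear model over all promoters called none of these differences. limma was fitted to quantile-scaled log2 fold enrichment at 12070 promoters with a peak in the 6 shCtrl, shEZH2 and shE2F1 libraries. At an adjusted p under 0.05 (Benjamini-Hochberg over all promoters), 0 members and 0 promoters were called in shEZH2, which is 0% of those tested, and 0 of both in shE2F1, again 0%. At an unadjusted p under 0.05 there were 786 promoters, or 6.51%, in shEZH2 and 695, or 5.76%, in shE2F1, with 1 member in each, SMC3.

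SMC3 had the largest estimate among the members in shE2F1. Its log2 difference was 0.46 ± 0.12 (SE), a 1.38-fold higher enrichment with a 95% confidence interval of 0.20 to 0.72 on the log2 scale, an unadjusted limma p of 0.00195 and an adjusted p of 0.790. In shEZH2 the SMC3 log2 difference was 0.26, with an interval from just above 0 to 0.51 and a limma adjusted p of 0.749. NIPBL had log2 differences of 0.27 in shEZH2 (interval −0.07 to 0.60) and 0.26 in shE2F1 (interval −0.07 to 0.59). Both SMC3 and NIPBL kept a positive estimate under all 11 alternative limma fits in both knockdowns. Some of these fits could not change the sign, since dropping the variance trend or adding a term for replicate number leaves the estimate unchanged. None of them changed the choice of peak.

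For CTCF the log2 difference was −0.08 in shEZH2 (interval −0.31 to 0.16) and 0.05 in shE2F1 (interval −0.18 to 0.29). Changes of the CTCF promoter beyond these bounds are outside the intervals, and smaller ones could not be detected with 2 libraries a group. RAD21 had intervals of −0.26 to 0.35 and −0.40 to 0.21, and STAG1 of −0.25 to 0.41 and −0.29 to 0.36. WAPL had a log2 difference of −0.24 in shE2F1 with an interval of −0.52 to 0.04. PDS5A, called lower by rank in shEZH2, had a log2 difference of −0.03 there with an interval of −0.41 to 0.36. STAG2 had the widest intervals, −0.93 to 0.17 in shEZH2 and −0.86 to 0.24 in shE2F1.

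The knockdowns were also compared with each other in the same limma fit. PDS5B had the largest difference, with a log2 fold enrichment lower by 0.36 in shEZH2 than in shE2F1 (interval −0.70 to −0.02, limma, adjusted p = 0.569). PDS5B stood at 70.5 in each shEZH2 library and at 95.04 and 83.8 in shE2F1. Its size rested on single libraries, with a log2 difference of −0.16 without shE2F1 replicate 1 and −0.56 without shE2F1 replicate 2. No member and 0 of 12070 promoters passed the adjusted threshold. At an unadjusted p under 0.05 there were 1005 promoters, or 8.33%, with 1 member, PDS5B.

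**Figure D3:**
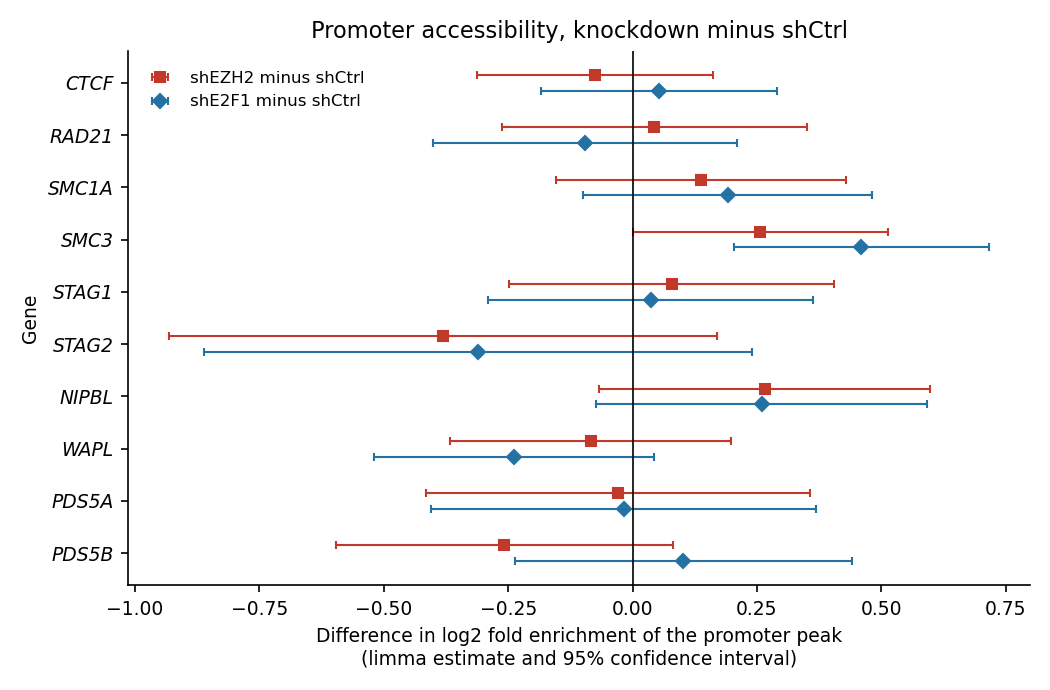
Difference in log2 fold enrichment of the promoter peak, knockdown minus shCtrl (x axis), for the 10 genes (y axis); points are limma estimates from 2 libraries a group and bars are 95% confidence intervals. The SMC3 interval in shE2F1 spans 0.20 to 0.72, and no difference passed the adjusted threshold.

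STAG2 had 2 accessible regions at its promoter, and its strongest peak in the window came from either one, depending on the library. The upstream region (chrX:123959924-123961069) had its strongest summit at −1371 from the canonical TSS, and 8 of the 29 annotated STAG2 transcripts start in it. The other (chrX:123961087-123961832) lay at the canonical TSS, in the untranslated exon 1, where 14 transcripts start. In the 201 bases around the summits the ratio of observed to expected CpG was 1.22 upstream and 0.426 at the canonical TSS. The upstream peak was the stronger in every library, but it reached the 1 kb window only in the shCtrl libraries, shEZH2 replicate 1 and GSK126.

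Taken separately, the STAG2 regions did not give the difference that the window gave. The upstream region stood at 26.0 and 47.6 in shCtrl, 35.7 and 40.1 in shEZH2, and 24.0 and 26.6 in shE2F1. Neither knockdown was separated from shCtrl there. The region at the TSS stood at 10.9 and 23.1 in shCtrl, 4.91 and 0.681 in shEZH2, and 11.7 and 19.6 in shE2F1. At the TSS it was shEZH2, not shE2F1, that lay below both controls. The shEZH2 replicate 2 peak there was weak, with 25 tags and a −log10 q of 4.43, and dropped out at −log10 q of at least 5. With a window of 500 bp the shE2F1 difference was −1.38 points in place of −21.2, and STAG2 was called lower in shEZH2 only. The share of all promoters called lower in that window is not given here. In shSUZ12, DMSO and GSK126 the region at the TSS stood at 30.0, 28.6 and 21.3.

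**Figure D4:**
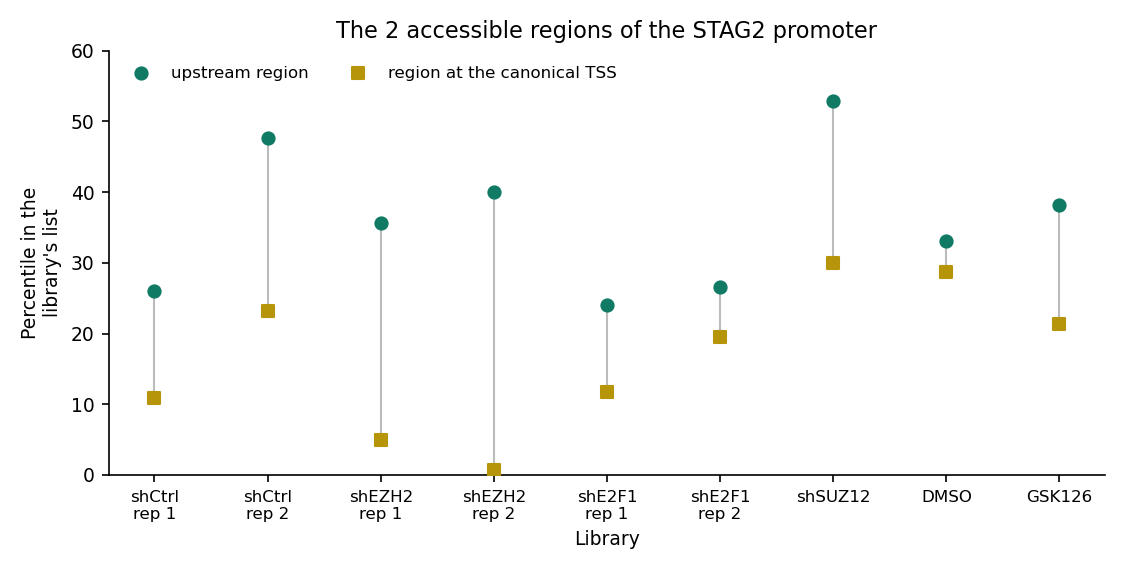
Percentile within the library's list (y axis) of the upstream region and of the region at the canonical TSS of STAG2 in each of the 9 libraries (x axis). The upstream region lies above the other in every library, and the region at the TSS stands at 4.91 and 0.681 in shEZH2.

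Promoter peaks of the members were 255 to 1861 bp wide, with a median of 1129 bp. The median peak of a list was 361 to 415 bp, but that covers all peaks. The median width of promoter peaks alone is not given here, so breadth cannot be called particular to the members. In shEZH2, 6 of 10 members had a narrower promoter peak in both libraries (RAD21, SMC1A, SMC3, STAG1, STAG2 and NIPBL), beside 47.3% of all promoters, and 0 a wider one, beside 2.32%. In shE2F1, 5 were narrower (CTCF, SMC1A, STAG1, STAG2 and NIPBL), beside 37.3%, and 0 wider, beside 4.25%. These shares were near those of all promoters. SMC3 shows the opposite course of width and rank in shEZH2. Its peak was 1306 and 1323 bp wide in shCtrl and 1155 and 1149 bp in shEZH2, where its percentile was higher. At STAG1 the peak was 1225 and 1475 bp wide in shCtrl and 953 and 668 bp in shEZH2. The STAG1 window of shEZH2 replicate 1 held 2 peaks of 1274 bp in sum, within the shCtrl values. By the summed width of all peaks in the window, an alternative chosen after seeing the data, STAG1 was no longer narrower in shEZH2 and 5 members were, beside 48.9% of all promoters. In shE2F1 the count by summed width was also 5, beside 38.8%.

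SUZ12 depletion was represented by 1 library, so its differences have no replicate check and no test. A difference of at least 10 points from the shCtrl mean was taken as a call. SMC3, at 90.1, and NIPBL, at 60.4, were higher by 11.2 and 11.1 points, 2 of 10 members beside 17.6% of promoters. No member was lower by that much, beside 5.45%, and RAD21 came nearest at 85.0, a difference of −9.42 points. The median difference was −0.307 points over the members and 2.73 over all 12868 promoters. The shSUZ12 comparison also shares the shCtrl libraries, and in DMSO the values were 83.6 for SMC3 and 53.6 for NIPBL.

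GSK126 was compared with DMSO, with 1 library each and again no test. The control is called DMSO after its title, while another of its labels reads WT, so whether it received the vehicle is not certain. PDS5A was higher by 13.3 points, at 48.8 in DMSO and 62.2 in GSK126, the 1 member called beside 6.87% of promoters. No member was lower by 10 points, beside 15.4% of promoters. CTCF stood at 91.6 and 97.8, WAPL at 87.1 and 94.2, and STAG2 at 28.6 and 38.2. The median difference was 5.59 points over the members, with 8 of 10 higher, and −0.764 over all 12823 promoters. With the shCtrl libraries as the control in place of DMSO the members' median was 1.34 points, and PDS5A in GSK126 lay between its shCtrl values of 64.2 and 61.6.

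Beyond the promoters, the gene bodies of the members held 31 accessible regions over 1372 kb. Only 5 of the 31 had a peak in all 9 libraries and 11 had a peak in 1 library. The recurrent regions were intronic except for 1 in STAG2. CTCF had 1 in intron 2 (chr16:67600946-67601598), at percentiles of 37.4 to 90.3. STAG2 had 1 in intron 1 (chrX:123962832-123963314), 1504 bp from the TSS, and 1 over coding exon 20 (chrX:124063847-124064598), at percentiles of 45.4 to 78.8. NIPBL had 1 in intron 1 (chr5:36928885-36929412), which ranged from 17.2 in shE2F1 replicate 2 to 86.6 in shCtrl replicate 1. PDS5A had 1 in intron 2 (chr4:39970772-39971606), at 64.4 to 95.4.

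The PDS5A intron 2 region was higher in shE2F1 than in both controls. It stood at 74.6 and 71.8 in shCtrl, 85.3 and 95.4 in shE2F1, and 67.7 and 64.4 in shEZH2. It was picked out after its values were seen, and no test was made of it. STAG1, the longest gene at 416 kb, had no region in all 9 libraries, and 2 of its regions near the 3′ end had a peak in 8 libraries, with shEZH2 replicate 1 the exception at both.

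Few gene body regions were gained or lost, by presence in both knockdown and in neither control library or the reverse. In shEZH2, 1 of 25 regions was gained, in intron 9 of NIPBL (chr5:36982163-36982494), at percentiles of 76.4 and 65.4, beside 0.889% of all 99181 regions. It had no peak in the other 7 libraries. In shEZH2, 1 of 25 was lost, in intron 32 of PDS5A (chr4:39825700-39825991), beside 7.20%. In shE2F1, 0 of 29 were gained, beside 2.86% of 107395 regions, and 2 were lost, beside 3.81%. The lost regions were the same PDS5A region, which had peaks in the shCtrl libraries alone at 36.9 and 33.1, and a region in intron 1 of STAG2 (chrX:123993157-123993700).

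The CTCF core consensus was uncommon in these regions and in regions outside promoters generally. It lay within 100 bp of the strongest summit in 1 of the 31 gene body regions, in intron 11 of RAD21, and in 4.22% of all regions outside promoters. None of the 5 recurrent regions held it, beside 4.80% of the 29516 recurrent regions outside promoters.

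**Figure D5:**
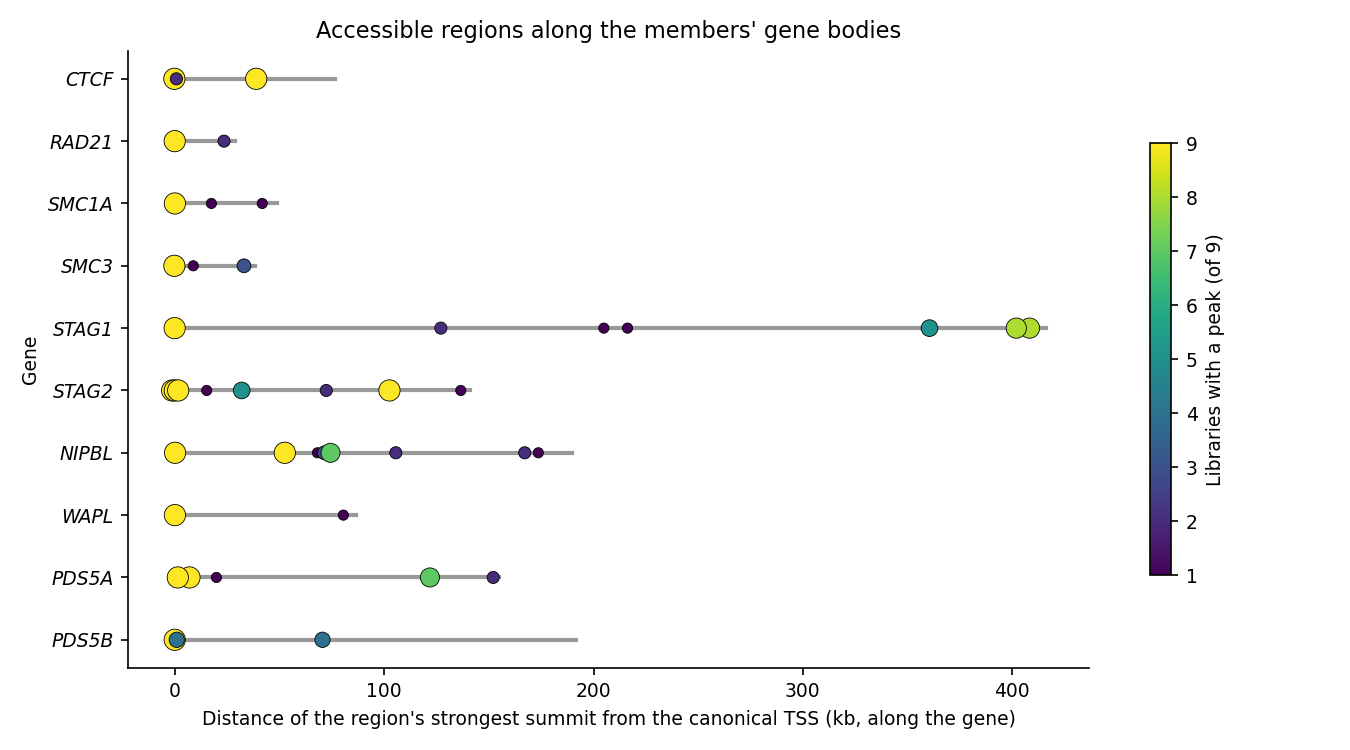
Accessible regions along the 10 genes, by distance of the strongest summit from the canonical TSS (x axis, kb along the gene); grey lines span the gene, and the colour and size of a point give the number of libraries with a peak (1 to 9). Promoter regions lie at the left end, and 5 of the 31 regions beyond them have a peak in all 9 libraries.

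Other genes of cohesin and related complexes gave mixed counts, to be read against the shares of all promoters given above: in shEZH2 29.7% lower and 10.6% higher, and in shE2F1 17.0% lower and 19.2% higher. Of the 8 other cohesin regulators, 2 were lower and 0 higher in shEZH2, and 2 were lower and 1 higher in shE2F1. CDCA5, which encodes sororin, the protector of cohesion, was lower in both, at 61.0 and 68.1 in shEZH2 and 64.95 and 76.9 in shE2F1, from 82.6 and 77.9 in shCtrl. Of the 8 condensin genes, 2 were lower and 3 higher in shEZH2, and 1 was lower and 5 higher in shE2F1. NCAPG, NCAPG2 and SMC2 were higher in both and SMC4 was lower in both. Both comparisons share the shCtrl libraries. In DMSO, NCAPG (93.7), NCAPG2 (98.9) and SMC2 (84.0) also lay above both shCtrl libraries and SMC4 (80.3) below both. CDCA5 went the other way, at 86.1 in DMSO, above both shCtrl libraries. How far the shCtrl libraries set these calls was not tested.

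The meiotic subunit gene REC8 had no promoter peak, while SMC1B, STAG3 and RAD21L1 had one in every library. Of these 3, SMC1B was lower in shEZH2 and STAG3 higher in shE2F1. The single genes named for the meiotic, CTCF and SMC5/6 lists were picked out after their values were seen. CTCFL, the germline relative of CTCF, had a promoter peak in 2 of 9 libraries. Of the 5 relatives and partners of CTCF with a peak in every library, 0 were called in shEZH2, and MAZ alone was higher in shE2F1. In the SMC5/6 list, NSMCE3 was higher in shEZH2, and NSMCE4A and NSMCE1 were higher and NSMCE2 lower in shE2F1. No gene of these lists passed the adjusted limma threshold, which 0 of 12070 promoters passed in either knockdown, so it tells nothing about these lists.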

How the data were processed

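ATAC-seq was analysed from the 9 deposited peak lists, 1 per library. The authors aligned reads with Bowtie2 to GRCh38 (hg38), keeping up to 4 alignments per read, and shifted them for Tn5. The peak caller is not given in the sources used here. As deposited, each list held a fold enrichment (ratio) at the summit, −log10 p and −log10 q values, and an integer score.

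Promoters were windows of 1 kb to each side of the TSS of GENCODE 44 canonical transcripts, and the strongest overlapping peak was ranked within its list. Fold enrichment was log2-transformed without a pseudocount, quantile-scaled and fitted with limma 3.58.1 (R 4.3.3, 6 libraries, no covariate), checked on simulated data. Lists gave no read counts, but summit tags were recovered from fold enrichment and −log10 p within 0.01 for at least 99.9% of peaks. Overlapping peaks of the libraries were merged into regions. Sequences were read with pysam 0.24.0 from the hg38 reference.

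The named genes were the 10 members, their neighbours, the knockdown targets, and genes of related lists beyond shCtrl in both knockdowns. Other genes of those lists were named after their values were seen. Members and lists were chosen with earlier results of these data known. Alternatives were other ranks, windows, list lengths, peak choices, controls and scalings, and leaving out each library.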

Additional observations from a re-analysis of the deposited data

How the results depend on the processing

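With 2 libraries a group, single libraries decided many counts. Leaving out 1 library in turn gave 3 to 6 members lower and 2 to 4 higher in shEZH2 (6 lower without shEZH2 replicate 2, 4 higher without shEZH2 replicate 1). In shE2F1 it gave 2 to 4 lower and 4 to 6 higher (4 lower without replicate 1, 6 higher without replicate 2), and a median of −0.0953 to 7.34 points, the ends being without shE2F1 replicate 1 and without replicate 2. The shSUZ12 median ran from −0.921 without shCtrl replicate 1 to 2.57 without shCtrl replicate 2. Gene body regions gained ran from 1 to 4 in shEZH2 and 0 to 5 in shE2F1, and regions lost from 3 to 5 and 2 to 6. A single remaining library is beyond the others more easily by construction.

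Ranked by −log10 p, 0 members were higher in shEZH2, the differences of NIPBL in shEZH2 and SMC1A in shE2F1 turned to −0.100 and −0.217, and the GSK126 median was 1.97. By the peak nearest to the TSS, 1 member was higher in shEZH2, where NIPBL turned to −20.3, and 1 was lower in shE2F1, as with a window of 500 bp. The median was 2.06 for shSUZ12 with the nearest peak, the 500 bp or the 2 kb window, and 3.19 for GSK126 with the nearest peak or the 500 bp window. With lists of the same number of peaks the medians were 1.58 for shSUZ12 and 7.65 for GSK126, PDS5A in shEZH2 turned to 0.516, and 0 regions were lost in shEZH2 and 1 in shE2F1. At −log10 q of at least 5, 2 regions were gained in shEZH2. With the other control, DMSO or shCtrl, the medians were 5.94 for shSUZ12 and 1.34 for GSK126. Beyond the effects of construction, the cause was not tested.

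With the replicate block, 4 members were lower and 2 higher in shEZH2, and 3 were lower and 3 higher in shE2F1. limma then called 0 members in either knockdown, with 848 and 735 promoters at an unadjusted p under 0.05. Deviations of same-numbered libraries correlated by 0.00231 to 0.0529 over 12070 promoters, so no effect shared by number was seen in the scaled values. That cannot exclude that the numbers mark paired cultures. Without scaling, all promoters shifted by medians of −0.18 and −0.17 (log2).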
